A study of Mus musculus with 10 samples.

Results

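The acute-phase genes Saa1, Saa2, Saa3, Hp, Orm1, C3, Cfb, Ptx3 and Ptgs2, acute-phase and inflammatory genes linked to the transcription factor C/EBPβ, were followed across 10 mouse lymphomas. They were taken by symbol: every non-control probe named for one of these 9 genes, of 27827 gene names in all, was used, which gave 14 of the 41174 probes on the array. The tumours had arisen spontaneously in a cohort kept under pathogen-free conditions, and RNA of 1 tumour per animal was hybridised to 1 single-colour array. Of the animals, 5 were heterozygous for the C/EBPb LIP allele (+/L, 11 to 21 months old at death, 4 labelled female and 1 male) and 5 were wild type at it (+/+, 20 to 29 months old, 3 labelled female and 2 male). No strain or tissue site is named in the labels, and neither group received an agent. The +/L mice were the younger group, so age was also fitted as a covariate. LIP is the short isoform of C/EBPβ that lacks the activating part of the protein and keeps the DNA-binding part. The comparison asks whether these genes stood at another level in tumours of mice that carry the LIP allele.

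The acute-phase response is the change in plasma proteins that follows infection or injury. IL-6 and IL-1 signal to hepatocytes through STAT3, NF-κB and the C/EBP factors, and secreted proteins such as serum amyloid A, haptoglobin, orosomucoid and the complement proteins C3 and factor B rise in blood. Several of the same genes are also transcribed outside the liver, Saa3, C3, Cfb, Ptx3 and Ptgs2 among them in macrophages and stromal cells.

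The promoters of 6 of the 9 genes could be read from RefSeq (GRCm38.p6, 250 bases before to 50 after the start), and each held exactly 1 match to the C/EBP core TTGCNNAA, searched on both strands. They are shown because this match is the sequence feature that these 6 members have in common. Each line gives 60 bases on the gene's strand, 5′ to 3′, with the match in capitals.
Saa1, chr7:46743129-46743188, minus strand: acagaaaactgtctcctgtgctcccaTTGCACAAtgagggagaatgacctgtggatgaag
Saa2, chr7:46751624-46751683, plus strand: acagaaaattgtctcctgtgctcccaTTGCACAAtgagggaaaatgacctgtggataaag
Saa3, chr7:46715742-46715801, minus strand: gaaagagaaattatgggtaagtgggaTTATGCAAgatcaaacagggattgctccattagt
C3, chr17:57228148-57228207, minus strand: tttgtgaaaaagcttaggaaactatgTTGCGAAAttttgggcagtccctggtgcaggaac
Ptx3, chr3:66219804-66219863, plus strand: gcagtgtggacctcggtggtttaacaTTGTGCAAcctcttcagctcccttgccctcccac
Ptgs2, chr1:150099936-150099995, plus strand: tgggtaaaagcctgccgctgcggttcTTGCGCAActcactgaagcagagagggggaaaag

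The match began at -45 in C3, -57 in Ptx3, -69 in Ptgs2, -99 in Saa3, -182 in Saa1 and -183 in Saa2, counted from the start of the gene. Of all 32851 promoters of this length, 3547 (10.8%) held it. Saa1 and Saa2 carry the same 8 letters, and their promoters are identical at 287 of 301 aligned positions (95.3%), whereas Saa3 and Saa1 are identical at 54.2%. A STAT3 motif, TTCNNNGAA (in 8.30% of all promoters), was found in 0 of the 6. These letter matches are a description and say nothing about binding in the tumours.

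Each array measured the genes with 60-base probes, whose intensities were expressed as log2 of the processed signal over the 75th percentile of the same array. All values below are on this scale, so 0 is the level of that percentile. The share of spots well above background was 48.0% to 66.7% per array. The percentile itself was higher in +/L (434 ± 129, SD, n = 5) than in +/+ tumours (288 ± 61.1, SD, n = 5), and leaving it out moves the median difference of all probes to 0.58. Of the 8 B-cell and 8 T-cell markers checked, all were well above background in all 10 tumours. The array of +/L mouse 20 stood apart in epithelial transcripts: Krt18 read 6.59 there and -2.59 to -0.42 in the 9 other tumours, and Krt8 read 3.90 against -6.35 to -1.37 (Krt8 was picked after its values were seen). The sex-linked transcripts of 2 arrays, those of +/L mouse 20 and +/+ mouse 11, did not match the labelled sex. Results are therefore also given without these mice where they move. With so few arrays, their number limits how precise each comparison is, and p-values of the groups set a difference against the spread between these tumours.

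Detection split the genes into 3 kinds. Saa3, Hp, C3 (both probes), Cfb and 1 of 2 Saa1 probes were well above background in all 10 tumours, 6 probes of 5 genes. Ptx3 was read in 8 or 9 of 10 tumours depending on the probe, and Orm1 in 3. Saa2 and 1 of 2 Ptgs2 probes were read in 0 tumours, and the second Saa1 and the other Ptgs2 probe in 1 each. A probe had to be well above background in at least 3 tumours to be tested, which left 10 of the 14 probes, for 7 genes. For the other 4, only detection and single readings are reported.

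**Figure D1:**
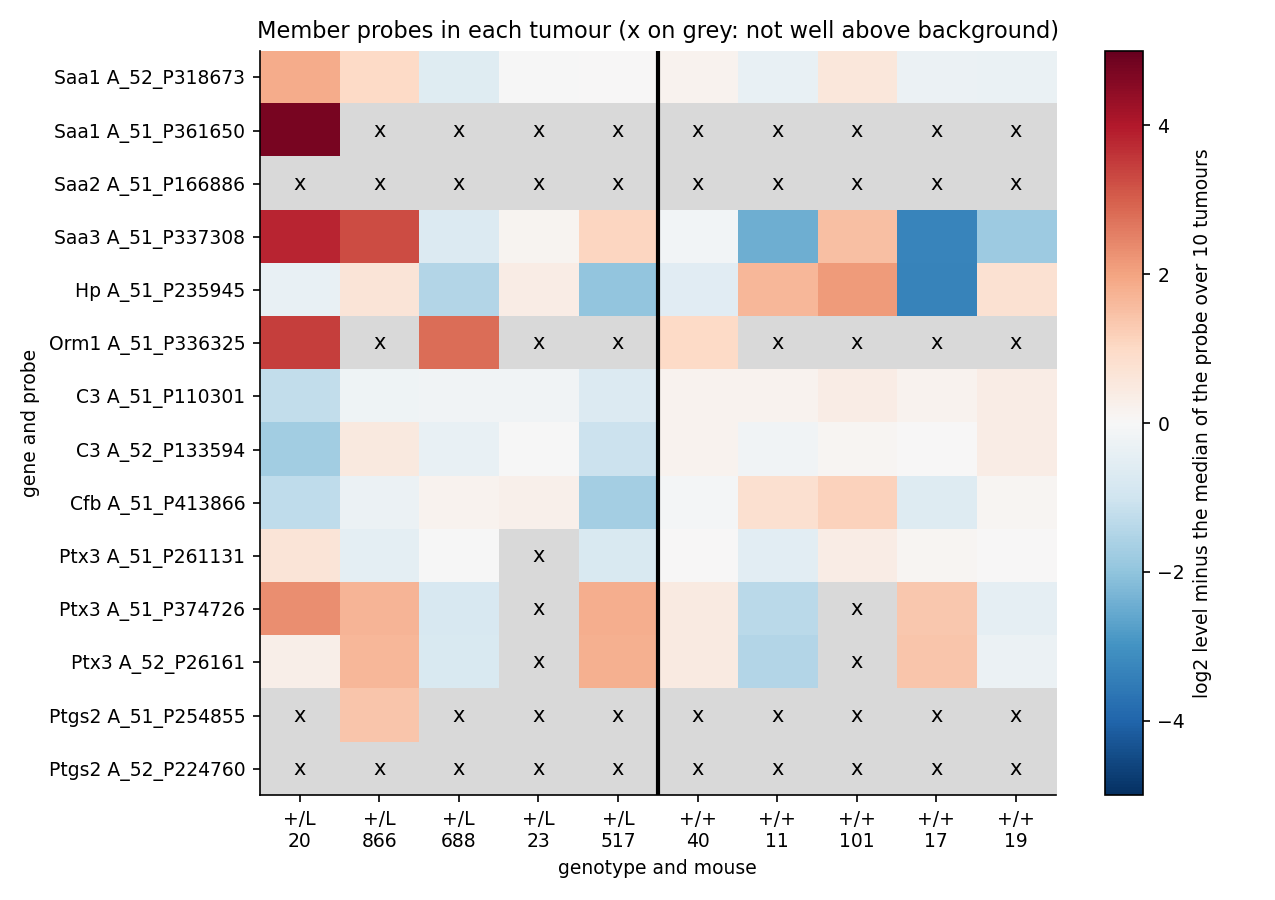
Level of the 14 probes in each tumour, as log2 level minus the median of the same probe over 10 tumours. Columns are mice grouped by genotype; grey cells with an x were not well above background. The second Saa1 probe is coloured for mouse 20 alone, and Orm1 for mice 20, 688 and 40.

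Between genotypes, 0 of the 10 tested probes passed an adjusted p of 0.05 in limma, fitted over all 26410 kept probes, of which 0 passed (0%). At an unadjusted p under 0.05, 2 of the 10 were found, C3 lower and Saa3 higher in +/L, beside 2103 of all probes (7.96%; 3.29% higher and 4.67% lower). This count was 2, both higher, without scaling, 1 after normexp and quantile normalization, and 0 in the authors' deposited table or with the labels' slide as a block. Without mice 20 and 11 it was 2, both lower in +/L, so Saa3 was no longer among them, beside 3640 of all probes. Leaving out mouse 20 alone left 1, lower in +/L, beside 3349. The groups did not overlap for 1 of 10, the main C3 probe, against 1.79% of all probes (1.22% lower in +/L). Without mice 20 and 11 this held for 2 of 10, both lower in +/L, beside 2512 of all 26410 probes. The added one was a Ptx3 probe on a record other than the mRNA, at most -2.82 in +/L and at least -2.80 in +/+. Of the 7 genes, by their brightest tested probe, 3 had a higher and 4 a lower mean in +/L, with a median difference of -0.26 beside -0.02 over all 17775 genes. That median is the value of the same Ptx3 probe. With either probe on the Ptx3 mRNA record the count was 4 higher and 3 lower with a median of 0.50, so the tally has no stable sign.

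Saa3 is a serum amyloid A that macrophages and adipose tissue also make. Its probe (chr7:53968031-53968090 in mm9) carries the sequence
Saa3: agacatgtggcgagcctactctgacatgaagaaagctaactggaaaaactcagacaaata
and the files list the Saa1 record beside the Saa3 record for it, so that its signal may hold some Saa1. In +/L tumours it read 2.07 in mouse 20, 1.49 in mouse 866, -0.67 in mouse 517, -1.63 in mouse 23 and -2.45 in mouse 688. In +/+ tumours it read -0.27 in mouse 101, -1.88 in mouse 40, -3.57 in mouse 19, -4.21 in mouse 11 and -5.04 in mouse 17. The 2 highest values were of +/L and the 3 lowest of +/+ tumours, and the groups overlapped in between. The difference was 2.75 with an SE of 1.08, or 6.75-fold (limma adjusted p = 0.60, exact two-sided permutation p = 0.071), which did not pass. Within the 3 slides, each with only 1 or 2 tumours of each genotype, it had the same sign, at 3.27, 3.06 and 3.41. Without mouse 20 it was 2.18 (limma adjusted p = 0.42) and without mice 20 and 11 it was 1.87. In the authors' deposited table, it was 1.45, a smaller value than here by more than 1.5 times. Among all tested probes, 98.9% had a smaller SD over the 10 tumours than this one (2.33), and the scatter was alike in the groups, with an SD of 1.96 in +/L and 1.91 in +/+.

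Saa1 is the liver-made serum amyloid A of plasma. It has 2 probes on the array, which gave unlike readings:
Saa1 A_52_P318673: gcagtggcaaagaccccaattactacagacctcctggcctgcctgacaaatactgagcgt
Saa1 A_51_P361650: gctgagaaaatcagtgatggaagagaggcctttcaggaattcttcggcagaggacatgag
The first, at chr7:53996070-53996129, was detected in all 10 tumours. It read 1.11 in +/L mouse 20, 0.28 in mouse 866, -0.72 in mouse 517, -0.74 in mouse 23 and -1.34 in mouse 688. In +/+ it read -0.15 in mouse 101, -0.57 in mouse 40, -1.03 in mouse 17, -1.04 in mouse 19 and -1.11 in mouse 11. The difference was 0.50 with an SE of 0.44 (limma adjusted p = 0.80) and shrank to 0.15 without mouse 20, so that the group mean rests largely on that tumour. The second probe, which spans an interval of 473 bases at chr7:53996167-53996639, was well above background in mouse 20 alone, at -2.49. Saa2, the close neighbour of Saa1, was not well above background anywhere (chr7:54009535-54009594), and mouse 20 gave its highest reading, -3.77. Counted from the brightest probe of each array, however, Saa2 ranked 26896 in +/+ mouse 40 and 27319 in mouse 20.

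Some liver transcripts were well above background in the tumour of mouse 20. Apoa1 was well above background in that tumour alone (-2.66) and Alb in mice 20 (-3.37) and 688 (-5.46), while Ttr was in none. Some undetected probes also read high on the array of mouse 20. Ttr read -3.52 there, against -7.84 to -5.18 in the other tumours. Of 11 hepatocyte markers, 8 were detected in mice 20 and 688, and 2 to 6 in the 8 other tumours. Not all markers read high in mouse 20. Hnf4a was not well above background there and read -5.93, its lowest value over the 10 tumours. Trf read 1.37 there, in a range of 1.26 to 3.15 over the 10 tumours. The hepatocyte score was a mean, over the 7 markers that were tested, of the deviation from each marker's own mean. Alb, Apoa1 and Ttr were not among these 7. The score was lowest at -0.34 and highest at 1.37 in +/L tumours, against -0.88 and 0.80 in +/+ tumours (exact permutation p = 0.16). Mouse 20 was at the top. Readings not well above background entered the hepatocyte, neutrophil, mesothelial and adipocyte scores too. Neutrophil scores lay between -1.59 and 2.64 in +/L, and between -2.62 and 1.32 in +/+, with mice 866 and 20 highest. The mesothelial and epithelial score lay between -0.90 and 3.96 in +/L, and between -1.54 and 0.038 in +/+ (difference 1.59, exact permutation p = 0.063), again with mice 20 and 866 highest. Upk3b, a gene of this score, was well above background in 3 tumours, all +/L, and entered it through that group alone. Of the 8 listed markers, 2 to 5 were detected in +/+ and 2 to 8 in +/L tumours. This difference therefore compares many dim readings, and its size was not measured. The adipocyte score differed by 2.12 (exact permutation p = 0.13). The part of these cell types in the Saa values was not tested.

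Orm1, orosomucoid, is a lipocalin of plasma that binds lipophilic ligands. Its probe (chr4:63006483-63007090) was well above background in 3 tumours, +/L mice 20 (-2.47) and 688 (-3.13) and +/+ mouse 40 (-4.91). Alb was above background in the first and second of these too. Counted from the brightest probe of each array, Orm1 ranked 18391 in mouse 688 and 20112 in mouse 20. The 7 other tumours had readings from -8.21 to -5.63 that were not well above background. The difference of 1.06 (SE 0.95, limma adjusted p = 0.81) therefore compares mostly dim readings. Without mouse 20 it was 0.42, and without +/L mouse 866, whose reading was the lowest, 1.85.

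Hp is haptoglobin, the plasma protein that captures free haemoglobin, and granulocytes store it as well. In +/L tumours its probe (chr8:112099172-112099231) read 4.41 in mouse 866, 4.13 in mouse 23, 3.38 in mouse 20, 2.31 in mouse 688 and 1.78 in mouse 517. In +/+ tumours it read 5.87 in mouse 101, 5.43 in mouse 11, 4.53 in mouse 19, 3.17 in mouse 40 and 0.41 in mouse 17. The 3 highest values and the lowest were all +/+, so the wild-type group enclosed the +/L group on both sides. The difference of -0.68 (SE 0.98, limma adjusted p = 0.89) was smaller than the SD of either group, 1.14 in +/L and 2.20 in +/+. Its sign was not the same in the slides (1.06, -2.47 and -0.80) and turned with age as a covariate (0.27). Without mouse 866 it was -0.98, and the range over leaving out each tumour in turn was -1.55 to -0.18.

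C3, the protein on which all complement pathways converge, was read by 2 probes far apart in its transcript. Their mean levels over the 10 tumours were unlike, 8.94 for the probe from base 5053 and -0.59 for that from base 646. They are shown because of their distance in the record:
C3 A_52_P133594, from base 646 of the record: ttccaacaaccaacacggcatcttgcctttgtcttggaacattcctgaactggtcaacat
C3 A_51_P110301, from base 5053 of the record: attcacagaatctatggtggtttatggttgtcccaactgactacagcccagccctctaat
The second sits at chr17:57343416-57343475 and is printed 10 times on each array, with a median SD between spots of 0.070. In +/L it read 7.83 in mouse 20, 8.36 in mouse 517, 8.86 in mouse 866, 8.88 in mouse 23 and 8.89 in mouse 688. In +/+ it read 9.23 in mice 11 and 17, 9.25 in mouse 40, 9.42 in mouse 19 and 9.44 in mouse 101. All +/L values lay below all +/+ values, and the spread was also narrower in +/+ (SD 0.11) than in +/L tumours (SD 0.47). The difference was -0.75 with an SE of 0.24, or 1.68-fold lower. Its exact two-sided permutation p was 0.0079, the smallest that 5 against 5 can give, and its limma adjusted p was 0.59. Within the 3 slides, each with only 1 or 2 tumours of each genotype, the difference had the same sign (-0.88, -0.61 and -0.57). It was -0.57 without mouse 20.

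The size of the C3 difference depended on how arrays were put on one scale. With no scaling it was -0.17 (exact permutation p = 0.56), when the median of all probes moved to 0.58. After normexp and quantile normalization it was -0.31 (limma adjusted p = 0.78), and in the authors' deposited table it was -0.07 (limma adjusted p = 0.98). The groups overlapped in these 3 settings. With age as a covariate it was -0.99 (limma adjusted p = 0.86). The other C3 probe (chr17:57364538-57364695) read -2.11, -1.47, -0.73, -0.40 and 0.12 in +/L mice 20, 517, 688, 23 and 866. In +/+ it ran from -0.55 in mouse 11 to -0.0021 in mouse 19. Its difference was -0.64 (SE 0.38, limma adjusted p = 0.69, exact permutation p = 0.18), with overlapping groups. It was -1.15, -0.38 and 0.26 within the 3 slides, -0.064 without scaling and -0.34 without mouse 20.

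Cfb encodes factor B, the protease that joins C3b to form the alternative-pathway convertase. In +/L tumours its probe (chr17:34993502-34993858) read 6.70 in mouse 23, 6.61 in mouse 688, 6.13 in mouse 866, 5.16 in mouse 20 and 4.74 in mouse 517. In +/+ it read 7.59 in mouse 101, 7.22 in mouse 11, 6.54 in mouse 19, 6.32 in mouse 40 and 5.77 in mouse 17. The 2 highest were +/+ and the 2 lowest +/L, with the other 6 mixed. The difference of -0.82 (SE 0.47, limma adjusted p = 0.68, exact permutation p = 0.14) did not pass. It was -0.16, -1.50 and -0.94 within slides and -0.24 without scaling.

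Ptx3, a long pentraxin that opsonises microbes, is represented by 3 probes of different design. Of these, 2 lie side by side on the mRNA record at chr3:66029245-66029304 and chr3:66029200-66029259 and share 15 bases (TGTTTATCTTGGCAA). The remaining one belongs to another transcript record, at chr3:66024210-66024234, and its coordinates run in the opposite order. They span 25 bases, and the strand that this probe reads was not checked, so it may not measure the Ptx3 mRNA. The first mRNA probe read -0.73, -1.25, -1.36 and -3.86 in +/L mice 20, 517, 866 and 688. In +/+ it read -1.72, -2.60, -3.50 and -4.38 in mice 17, 40, 19 and 11. It was not well above background in +/L mouse 23 and +/+ mouse 101. The groups overlapped, with a difference of 1.0 (SE 1.02, limma adjusted p = 0.83), and of 0.87 (SE 0.80, adjusted p = 0.81) for the neighbouring probe. Those 2 probes lay within 0.15 of each other in 8 tumours but differed by 2.01 in mouse 20 and by -1.49 in mouse 23. That remaining probe differed by -0.26 (SE 0.30, limma adjusted p = 0.86) and by 0.32 without scaling, so no direction for Ptx3 holds over its probes and settings. Both mRNA probes turned sign with age as a covariate (-0.27 and -0.63).

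Ptgs2, cyclooxygenase-2, makes prostaglandins in inflamed tissue. Its probe with 10 spots per array (chr1:151954744-151954803) was well above background in +/L mouse 866 alone, at -5.02. The other (chr1:151954416-151954475) was in 0 of 10 tumours. At this signal, no difference between genotypes in Ptgs2 could be measured.

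**Figure D2:**
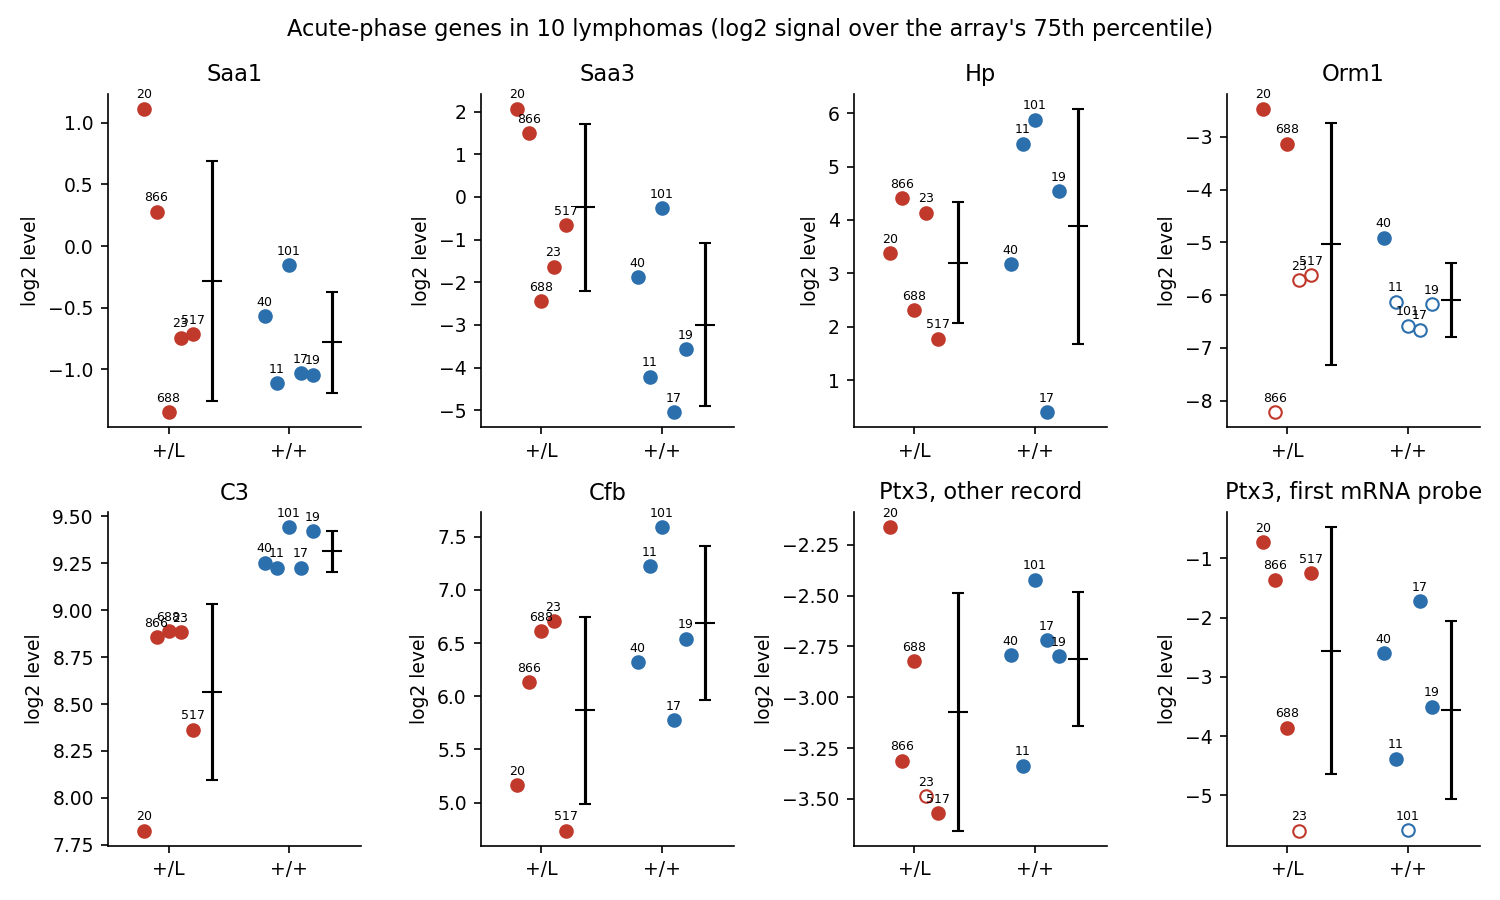
Level of each tested gene by genotype, as log2 signal over the 75th percentile of the array; points are tumours labelled by mouse, open where not well above background, and bars are the mean and SD of 5. The panels have separate vertical scales. C3 is the panel without overlap, with +/L at 7.83 to 8.89 and +/+ at 9.23 to 9.44.

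**Figure D3:**
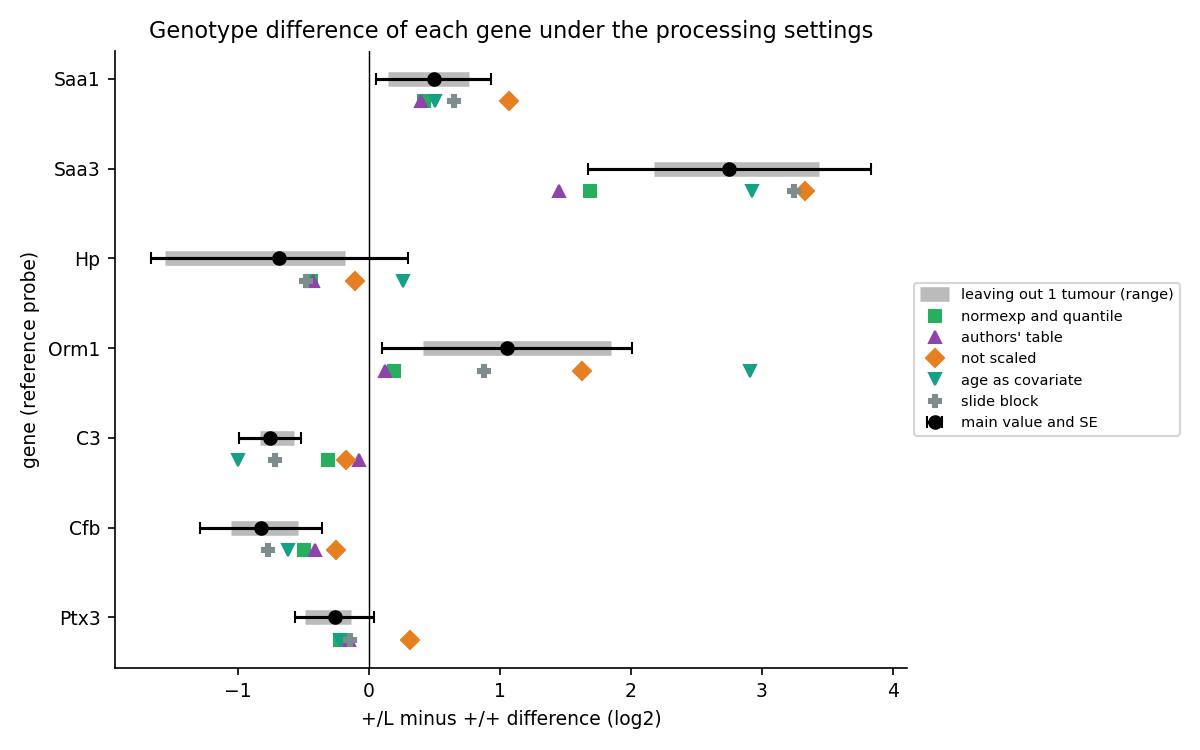
Genotype difference, +/L minus +/+ in log2 units, of the brightest tested probe of each gene, as black points with SE, with coloured marks for other processing and grey bars for the range when 1 tumour is left out. Saa3 stayed above 0 and C3 and Cfb below 0 in the settings drawn, whereas Hp and Ptx3 crossed 0.

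The genes did not vary as one block among the tumours. Ptx3 was read here by its probe on the record other than the mRNA alone. Of 21 pairs of the 7 genes, 1 passed after Benjamini-Hochberg adjustment, Saa1 with Saa3. Their Pearson r over the 10 tumours was 0.87 (permutation p = 0.00029, adjusted p = 0.0061) and Spearman's rho 0.85 (permutation p = 0.0029, adjusted p = 0.061). It was 0.71 without the 2 tumours farthest out in Saa1, mice 20 and 866, and 0.90 on values centred within genotype. Leaving out mouse 20 (r = 0.84, adjusted permutation p = 0.075) or mouse 866 (r = 0.85, adjusted permutation p = 0.052) took the adjusted p above 0.05. The Saa3 probe also lists the Saa1 record, so the 2 measures may share signal. C3 and Cfb gave r = 0.76 and rho = 0.60 (permutation p = 0.011 and 0.074, adjusted p = 0.12 and 0.52), and r = 0.34 without mice 20 and 517, on which the relation rests. Hp and Cfb gave r = 0.70 and rho = 0.71 (permutation p = 0.025 and 0.028, adjusted p = 0.18 and 0.29), and r = 0.67 without mice 101 and 17. Saa3 and C3 gave r = -0.65 and rho = -0.50 (permutation p = 0.040 and 0.14, adjusted p = 0.21 and 0.74), r = -0.39 without mice 20 and 17, and -0.34 on values centred within genotype. Slides hold 3 or 4 arrays, too few for a value within a slide.

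**Figure D4:**
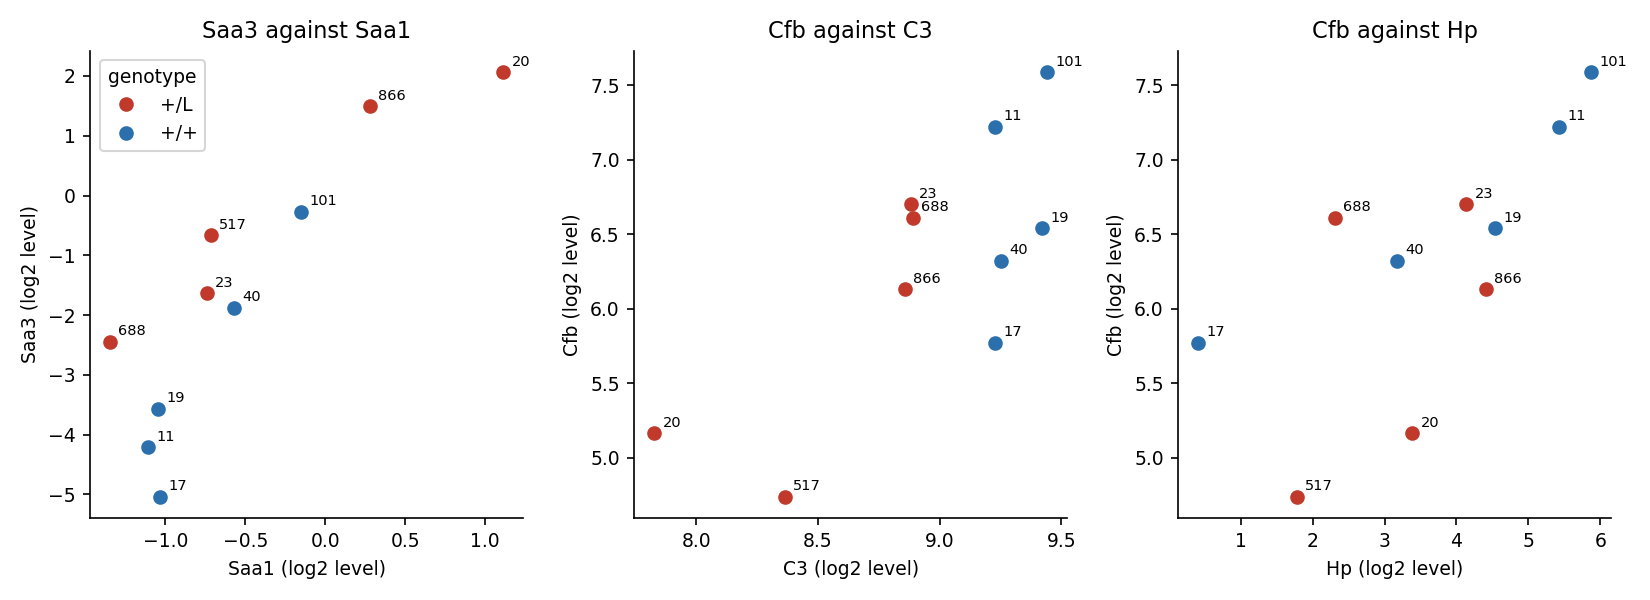
Level of Saa3 against Saa1, Cfb against C3 and Cfb against Hp in the 10 tumours, in log2 units over the 75th percentile of the array; red points are +/L and blue +/+, labelled by mouse. Mice 20 and 866 lie at the top right for Saa1 and Saa3, and mice 20 and 517 at the bottom left for C3 and Cfb.

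Of 84 relations of the 7 genes to scores of 10 cell types and to Cebpb and Cebpd, 0 passed after adjustment. By Pearson r, 11 had an unadjusted permutation p under 0.05, and all 11 follow. Ptx3 stood here by its probe on the record other than the mRNA, and its mRNA probes were not compared with the scores. Saa1 and the neutrophil score were under 0.05 by rho alone. They gave r = 0.58 and rho = 0.70 (permutation p = 0.080 and 0.031, adjusted p = 0.45 and 0.50), and r = 0.11 without mice 20 and 866. Saa1 and Saa3 went with the mesothelial and epithelial score. For Saa1 this gave r = 0.80 and rho = 0.41 (permutation p = 0.013 and 0.25, adjusted p = 0.27 and 0.74), and r = -0.27 without mice 20 and 866, on which it rests. For Saa3 it gave r = 0.70 and rho = 0.64 (permutation p = 0.011 and 0.053, adjusted p = 0.27 and 0.50), and r = 0.52 without mice 20 and 17. Saa1 and the follicular dendritic score gave r = -0.65 and rho = -0.28 (permutation p = 0.039 and 0.43, adjusted p = 0.33 and 0.82; r = 0.35 without mice 20 and 866). Hp ran against the endothelial score (r = -0.83, rho = -0.71, permutation p = 0.0034 and 0.028, adjusted p = 0.27 and 0.50; r = -0.61 without mice 101 and 17). Orm1 went with the hepatocyte score (r = 0.77, rho = 0.76, permutation p = 0.010 and 0.015, adjusted p = 0.27 and 0.43; r = 0.52 without mice 20 and 688). Hp and Cebpb gave r = 0.68 and rho = 0.58 (permutation p = 0.031 and 0.089, adjusted p = 0.29 and 0.52; r = 0.50 without mice 101 and 17). For Saa3 and Saa1, r with Cebpb was 0.33 and 0.47 (permutation p = 0.34 and 0.18). On values centred within genotype, r with Cebpb was 0.92 for Saa3, 0.77 for Saa1 and 0.67 for Hp. It was 0.50 for Ptx3, 0.31 for Cfb, -0.05 for Orm1 and -0.07 for C3. Centred r was also large for relations to cell-type scores. With the mesothelial and epithelial score it was 0.82 for Ptx3 and 0.78 for Saa1. It was -0.82 for Hp with the endothelial score and 0.78 for C3 with the T-cell score. These centred values were not tested. C3 ran against the hepatocyte score (r = -0.70, rho = -0.49, permutation p = 0.022 and 0.15, adjusted p = 0.27 and 0.52; r = -0.45 without mice 20 and 517). It also ran against the mesothelial and epithelial score (r = -0.73, rho = -0.37, permutation p = 0.030 and 0.29, adjusted p = 0.29 and 0.82; r = -0.54 without mice 20 and 517). C3 and the follicular dendritic score gave r = 0.63 and rho = 0.61 (permutation p = 0.047 and 0.066, adjusted p = 0.36 and 0.50; r = 0.49 without mice 20 and 517). Cfb ran against the neutrophil score (r = -0.72, rho = -0.79, permutation p = 0.019 and 0.0093, adjusted p = 0.27 and 0.39; r = -0.80 without mice 20 and 517). Cfb and the endothelial score gave r = -0.73 and rho = -0.81 (permutation p = 0.018 and 0.0075, adjusted p = 0.27 and 0.39; r = -0.98 without mice 20 and 517). In bulk tumours, fewer cells of a type and less RNA per cell cannot be told apart.

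The genes whose level followed each member most closely over the 10 tumours, of 14791 compared and as a description, were Masp1, Gpr37l1 and Mfsd6l for Saa1 (highest r 0.94) and Mpg, Klra3 and Il17rb for Saa3 (0.92). They were Stfa3, Commd3 and Ncoa4 for Hp (0.95), Slc2a5, Mtarc1 and Sec1 for Orm1 (0.94), Il2rg, Sostdc1 and Elf4 for C3 (0.97) and Coa4, Chaf1b and Vdac2 for Cfb (0.98). For Ptx3, by its probe on the other record, they were Olfr1305, Fosb and Magea5 (0.96).

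The partners of these genes were read by lists. In complement, 22 of 24 listed partners of C3 and Cfb were tested and 0 passed, while 3 were higher and 6 lower in +/L at an unadjusted limma p under 0.05. That compares with 8.46% of all 17775 genes, 3.12% higher and 5.34% lower, and the list's median difference was -0.07. The 2 of lowest p were Cd59a, an inhibitor of the membrane attack complex, at 1.50 (SE 0.36, limma adjusted p = 0.59, groups not overlapping), and Itgax, a chain of complement receptor 4, at -1.74 (SE 0.55, adjusted p = 0.59). The other 7 are named because of their values. C1qa, C1qb and C1qc, the 3 chains of the classical-pathway sensor C1q, differed by -1.44, -1.58 and -1.33. The groups did not overlap for C1qa and C1qc either. Among all probes, 1.79% did not overlap, 1.22% lower and 0.58% higher in +/L. Properdin (Cfp), which stabilises the convertase of C3 and factor B, differed by -0.90, and the C3a receptor C3ar1 by -2.09. Factor D (Cfd), the protease that cleaves factor B and an adipocyte product, differed by 5.03 and C6, a part of the membrane attack complex, by 2.35. C3ar1 was well above background in 3 +/L and 5 +/+ tumours, and Cfd and C6 each in 5 and 4. The sizes of these 3 differences therefore rest partly on dim readings. The adipocyte score, which includes Cfd, lay between -1.67 and 3.36 in +/L, and between -2.58 and 2.07 in +/+, and its part in the Cfd value was not tested. The C1q genes also stand in the macrophage list, whose score lay between -2.07 and 1.56 in +/L, and between -0.66 and 0.56 in +/+. C2 (-0.09) and C4b (-0.80), which form the classical convertase, did not pass.

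**Figure D5:**
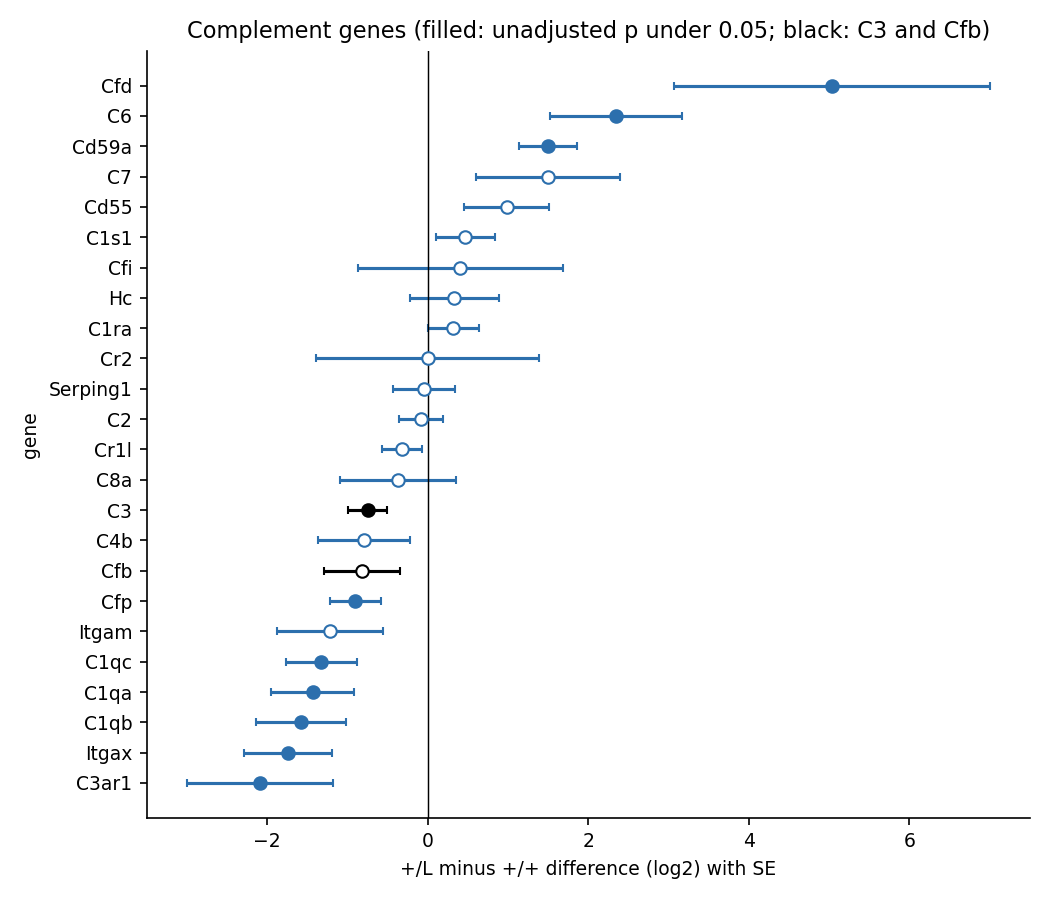
Difference of complement genes, +/L minus +/+ in log2 units with SE, from limma on 5 against 5 tumours. Filled points had an unadjusted p under 0.05 and black points are C3 and Cfb. C1q chains, Cfp, C3ar1 and Itgax lie below 0 and Cfd, C6 and Cd59a above it, and 0 passed after adjustment.

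Of 21 other hepatic acute-phase genes listed, 12 were tested, and 6 (Itih3, Cp, Lbp, Lrg1, Mt1 and Mt2) were well above background in all 10 tumours. None reached an unadjusted p of 0.05 (0 passed), and their median was 0.39 against -0.02 over all genes. The 2 of lowest p were Mt2, a metal-binding metallothionein, at 1.11 (limma adjusted p = 0.67) and Cp, the copper carrier ceruloplasmin, at -0.56 (adjusted p = 0.68), which was 0.012 without scaling. Among 10 inducible innate genes tested, Icam1 (-0.66) and the chemokine Cxcl1 (1.69) had the lowest p, with 0 passing and Icam1 alone under an unadjusted p of 0.05. Of all 17775 genes, 8.46% were under it. Without scaling, Icam1 differed by -0.085 and Mt2 by 1.68. Cxcl1 was well above background in 4 +/L and 2 +/+ tumours, so the size of its difference rests partly on dim readings.

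Of the upstream signals and their pathway, 20 genes were tested, 0 passed and 2 were lower at an unadjusted p under 0.05, with a median of -0.36. Of all 17775 genes, 3.12% were higher and 5.34% lower at that p. Tlr2, a receptor for bacterial lipoproteins and for serum amyloid A, differed by -1.21 (SE 0.34, limma adjusted p = 0.59). Rela, the activating NF-κB subunit, differed by -0.81 (SE 0.24, adjusted p = 0.59, groups not overlapping, as in 1.79% of all probes). The C/EBP family had 5 tested genes, of which Cebpg, a short family member, was the 1 under an unadjusted p of 0.05, at 0.60 (adjusted p = 0.61). Cebpb itself differed by -0.74 (adjusted p = 0.70) and Cebpd, induced in the acute phase, by 0.12 (adjusted p = 0.95), a sign that turned in some settings. Without scaling the values were -0.16 for Cebpb, 1.18 for Cebpg, -0.24 for Rela and -0.63 for Tlr2.

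Among 8 receptors and clearance genes, 0 passed, and 2 were higher and 3 lower at an unadjusted p under 0.05. Of all 17775 genes, 3.12% were higher and 5.34% lower at that p. Selp, the endothelial and platelet selectin that Ptx3 binds, differed by 1.54 (SE 0.37, limma adjusted p = 0.59, groups not overlapping, as in 1.79% of all probes). Cd163, the macrophage receptor for haptoglobin-haemoglobin complexes, differed by 4.41 (SE 1.40, adjusted p = 0.59) but was well above background in 3 tumours, all of them +/L (mice 20, 866 and 688). It entered the test through that group alone. The other +/L readings, -3.64 in mouse 23 and -7.48 in mouse 517, were not well above background either, so the size of this difference was not measured. Fpr2, a receptor for serum amyloid A, differed by -1.68 and Fpr1 by -2.08; Cd163, Fpr2 and Fpr1 were named after their values were seen. Of 16 genes of the prostaglandin pathway around Ptgs2, 0 passed and 1, Pla2g4a, which releases arachidonic acid, was lower at an unadjusted p under 0.05, at -0.93 (adjusted p = 0.61) and -0.35 without scaling. Ptgis, prostacyclin synthase, was second lowest in p at 1.85 (adjusted p = 0.65), with 4 tumours above background.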

How the data were processed

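Total RNA of 10 lymphomas, 5 of each genotype, was hybridised to single-colour Agilent arrays. The deposited processed signal is an intensity per spot, which the authors extracted, per the file headers, with Agilent software (Feature Extraction, version 10.5.1.1). The same files carry flags for spots well above background and for outliers. A deposited table of log2 values from these arrays, with its background method not stated, served as an alternative. Here, spots of a probe were averaged and log2 of the processed signal was taken minus the array's 75th percentile. Control spots and 121 probes with an outlier flag were left out, and probes well above background on at least 3 arrays were kept.

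Genotypes were compared per probe with limma 3.58.1 (lmFit, eBayes) in R 4.3.3, Benjamini-Hochberg adjusted over all 26410 kept probes, threshold 0.05. Single values had an exact permutation test over 252 splits, and correlations 100000 resamples. A gene's brightest kept probe stands for it. Alternatives changed scaling, background, value source, filter, probe rule, covariates (age, labelled sex), slide and the set of tumours; leaving out mice 20 and 11, using no scaling and counting Ptx3 by its mRNA probes were chosen after seeing the data.

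Named were all members, the 3 genes most correlated with each, the 2 of lowest p in each pathway list, and Cebpb and Cebpd. Other genes were named outside these rules, among them single cell-type markers, C2 and C4b. For some of them the text says that they were named after their values were seen. The members and lists were chosen with earlier results of these data known, and 1 gene of the complement list is not reported here. Probe coordinates are the files' own (mm9); promoter sequences are of RefSeq, GRCm38.p6, where 6 of 9 members matched. Exon and UTR annotation was not used here. Mouse numbers in the labels differ between all tumours, so replicates were treated as separate animals. The slide comes from the file headers; description labels give another for 2 arrays.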

Additional observations from a re-analysis of the deposited data

How the results depend on the processing

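No member probe passed in any of 23 alternatives, where the lowest limma adjusted p of a gene's main probe was 0.25. Over all probes, the count past the threshold was 0, and 1 after normexp and quantile normalization, 1 in the authors' deposited table and 0 to 3 when each tumour was left out (3 without +/L mouse 517). At an unadjusted p under 0.05 the split was 870 higher and 1233 lower, and 4955 higher and 54 lower without scaling; the count ran from 1276 to 3349 when 1 tumour was left out. Over the alternatives the difference kept its sign for Saa3 (1.45 to 3.43), Saa1 (0.07 to 1.07), Orm1 (0.12 to 2.91), C3 (-0.99 to -0.07) and Cfb (-1.05 to -0.17). It turned for Hp with age as a covariate (0.27) and in female-labelled mice (0.45), and for the Ptx3 probe of the other record without scaling (0.32). The Ptx3 mRNA probes turned with age (-0.27 and -0.63) and in female-labelled mice (-0.41 and -0.10), as did Cebpd with age (-0.39), in female-labelled mice (-0.24), with the labels' slide as a block (-0.41), and without mouse 866 or 101 (-0.065 and -0.057, with a range of -0.065 to 0.44 over leaving out each tumour), and Cp without scaling (0.012). Over the alternatives Cebpb lay between -1.01 and -0.16, Icam1 between -0.75 and -0.085, Rela between -0.92 and -0.24, Cxcl1 between 0.29 and 2.97 and Selp between 0.55 and 2.12. The exact permutation test put C3 (-0.75) past 0.05 without adjustment. The causes were not tested. Correlated pairs past the threshold numbered 0 to 1 when 1 tumour was left out, with r of Saa1 and Saa3 at 0.84 without mouse 20 and 0.85 without mouse 866. No paired analysis was possible because the labels give every tumour its own mouse number. Signals near background limit Orm1, Ptx3, Saa2 and Ptgs2, for which detection is firmer than any level.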
